A study of Mus musculus with 6 samples.

Results

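Goblet cells are the mucus-secreting cells of the intestinal lining, and 10 genes of their secretory programme were followed in mouse small intestine at E18.5, shortly before birth. The genes were taken by name (Muc2, Muc13, Tff3, Clca1, Fcgbp, Agr2, Spdef, Zg16, Spink4 and Ern2), and every probe set that the platform annotation assigns to one of them was used, which gave 15 probe sets of 45037 and 10 genes of 18193. The study compared 3 arrays of epithelium (pools A, B and C) with 3 arrays of mesenchyme (pools A, B and C) from embryos of C57BL/6 females, and the labels name no treatment or mutant allele for either group. Each array carried RNA pooled from 3 embryos, after whole small intestines, duodenum to cecum, had been held in the cold for 9 hours in a solution that frees the epithelium without enzymes. The pools on the arrays had been selected by RT-PCR of Vil1 and Prkg2 (epithelium) and of Vim, Madcam1 and Actg2 (mesenchyme) for little carry-over of the other tissue, and pools that were not selected may vary more or less than these.

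The core of intestinal mucus is a disulfide-linked network of the gel-forming mucin Muc2, which is folded and assembled in the endoplasmic reticulum, packed into granules and released with smaller proteins that process or bind it. Agr2, a protein disulfide isomerase family member, and Ern2, an endoplasmic reticulum stress sensor of mucous epithelia, serve the folding step. Spdef is an ETS family transcription factor that drives late goblet cell differentiation. Of the 10 genes, Muc13 encodes a membrane-bound mucin that absorptive cells also carry, and Zg16 encodes a lectin first known from zymogen granules of the pancreas.

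Values are the deposited log2 expression values per probe set, so that a step of 1 is a 2-fold step in signal. A gene is described by its brightest probe set over the 6 arrays, with the other probe sets beside it. A difference is the mean of the epithelial arrays minus that of the mesenchymal arrays. It is given ± the standard error of limma, fitted to 3 arrays of each tissue. Limma draws the variance of each probe set towards that of all probe sets. Where pools spread widely, as for Clca1 in the epithelium (SD of 0.91), the error is smaller than those arrays alone would give. A gene counts as called where the Benjamini-Hochberg adjusted p over all probe sets is under 0.05 and the difference is at least 1. Array medians ranged from 8.1 to 8.6 in the epithelium and from 8.5 to 8.7 in the mesenchyme, arrays correlated at 0.978 to 0.984 within a tissue and at 0.773 to 0.813 between tissues, and the number of arrays limits the precision. Mesenchyme B stood apart in its spike-in hybridization controls, with a mean of 9.80, where the remaining arrays had 10.56 to 10.77. Of 16 pan-epithelial genes 15 were called higher in the epithelium, and of 18 mesenchymal genes 16 were called higher in the mesenchyme. These lists include Vil1 and, for the mesenchyme, Vim, Madcam1 and Actg2, by which the pools had been selected. The calls of those genes are therefore no independent check. The list of mesenchymal genes averaged 7.79, 8.24 and 8.02 in epithelium A, B and C, against 12.99, 12.93 and 12.89 in mesenchyme A, B and C.

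All goblet cell genes but Spdef were higher in the epithelium. This is 9 of 10 genes, where 8.19% of all genes were called higher in the epithelium (24.1% in either direction), and the same 9 genes had no overlap between the arrays of both tissues, where 16% of all genes had none with the epithelium higher. By probe set, 14 of 15 were called higher in the epithelium, against 5.98% of all probe sets, and those 14 had no overlap between tissues, against 12.4% of all probe sets. The median difference was 3.75 over the 10 genes and -0.17 over all genes. In RNA of separated tissue pools, fewer cells of a type and less RNA per cell cannot be told apart.

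Promoter sequence of 5 members was held in the RefSeq table used here, and that of 3 of them is shown because they stand for the secreted product, its folding helper and the regulator that was not called. Each line gives the 250 bases before the transcript start, 5′ to 3′, from RefSeq on build GRCm38.p6, and capitals mark matches on either strand to the motifs searched.
Muc2, chr7:141690090-141690339, plus strand: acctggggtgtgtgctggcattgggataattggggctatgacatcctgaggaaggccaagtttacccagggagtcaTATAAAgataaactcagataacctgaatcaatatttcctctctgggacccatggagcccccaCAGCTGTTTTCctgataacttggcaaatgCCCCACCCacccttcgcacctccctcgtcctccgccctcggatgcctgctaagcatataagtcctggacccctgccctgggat
Agr2, chr12:35992675-35992924, plus strand: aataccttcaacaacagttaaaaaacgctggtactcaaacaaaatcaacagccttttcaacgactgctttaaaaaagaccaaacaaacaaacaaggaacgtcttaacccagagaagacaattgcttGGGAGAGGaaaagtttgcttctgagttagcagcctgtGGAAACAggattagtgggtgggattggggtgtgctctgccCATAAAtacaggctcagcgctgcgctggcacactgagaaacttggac
Spdef, chr17:27728952-27729201, minus strand: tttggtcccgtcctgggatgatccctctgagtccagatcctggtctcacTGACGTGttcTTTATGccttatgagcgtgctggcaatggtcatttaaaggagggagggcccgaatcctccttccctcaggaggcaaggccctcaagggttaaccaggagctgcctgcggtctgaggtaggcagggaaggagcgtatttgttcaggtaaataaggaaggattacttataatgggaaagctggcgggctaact
The letters searched were TATAAA for the TATA box, TTTATG for the homeobox factors Cdx1 and Cdx2, TGTTTNC for the forkhead factors of the Foxa group, CAGCTG for an E-box that Atoh1 can bind, CCGGAT for Spdef itself, CCNCNCCC for zinc finger factors such as Klf4, CAAAGTNCA for the nuclear receptor Hnf4a and TGACGTG for an element of the unfolded protein response. The Cdx letters lay at -47 to -42 from the start in Agr2 and at -191 to -186 in Spdef, and also in a Muc13 promoter, so that 3 of 6 member promoters held them, against 10.8% of 32851 promoters of the same length. In the Muc2 promoter the TATAAA letters lay at -174 to -169, and the E-box at -112 to -107 ran into the Foxa letters at -108 to -102 and shared 2 bases with them. An E-box was found in 2 of 6 member promoters (13% of all promoters), the Foxa letters in 3 of 6 (17.8% of all) and the Klf letters in 4 of 6 (45.9% of all). The Spdef letters were in 0 of 6 (4.94% of all), the Hnf4 letters in 1 (1.19% of all), the TATAAA letters in 1 (12.4% of all) and the unfolded protein response letters in 1, that of Spdef itself (1.65% of all). These matches describe the sequence only.

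The 4 genes of the mucus gel and its partners, Muc2, Fcgbp, Clca1 and Zg16, were higher in the epithelium. Muc2, the gel-forming mucin (probe set 1428435_at), was at 12.0, 12.3 and 11.0 in epithelium A, B and C, against 8.7, 8.6 and 9.1 in mesenchyme A, B and C. Its difference was 2.97 ± 0.26, or 7.82-fold (adjusted p = 6.37e-12). The lowest epithelial array, C, was still above every mesenchymal array. Fcgbp, a large protein with mucin-like domains that is found attached to Muc2 in mucus (1426872_at), was at 13.5, 13.6 and 12.8 in epithelial pools A, B and C, against 9.4, 9.6 and 9.8 in mesenchymal pools A, B and C, a difference of 3.70 ± 0.24, or 13.0-fold (adjusted p = 1.45e-15).

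Clca1, a secreted metalloprotease that acts on mucus, had the largest difference of the 10 genes by the brightest probe set. Its brightest probe set (1416306_at) was at 12.8, 13.1 and 11.4 in epithelial pools A, B and C, against 6.1, 6.2 and 6.6 in mesenchymal pools A, B and C, a difference of 6.13 ± 0.29, or 70.2-fold (adjusted p = 1.40e-19). It ranked 2 among the 18193 genes by difference on that measure, but over the mean of all probe sets of a gene Clca1 differed by 3.58, below Muc13 (4.83), Agr2 (4.18), Spink4 (3.90), Tff3 (3.80) and Fcgbp (3.70). The mesenchymal values lay close to those of bacterial control probe sets, which averaged 5.87 to 6.25 per mesenchymal array, which limits how large a fold can be measured and leaves its exact rank uncertain. A second probe set of Clca1 (1459889_at) was dim in both tissues and read below the bacterial control mean in every mesenchymal array, with 6.9, 7.1 and 6.8 in epithelial pools A, B and C, against 5.6, 6.1 and 6.0 in mesenchymal pools A, B and C. Its difference of 1.03 ± 0.23 (adjusted p = 0.000381) barely reached the 2-fold threshold and was below it without epithelium B (0.95), without mesenchyme A (0.88) and with arrays centred on spike-in controls (0.77).

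Zg16, a lectin that binds bacterial cell walls, was higher in the epithelium by all 3 of its probe sets, but by unequal amounts. The brightest (1434137_x_at, of a kind of probe set that can pick up related sequences) was at 11.5, 11.7 and 11.2 in epithelial pools A, B and C, against 9.3, 9.2 and 9.6 in mesenchymal pools A, B and C, a difference of 2.10 ± 0.23 (adjusted p = 1.30e-09). Probe set 1428359_s_at was at 11.0, 11.2 and 9.9 in epithelial pools A, B and C, against 6.6, 6.3 and 6.7 in mesenchymal pools A, B and C, a difference of 4.17 ± 0.26 (adjusted p = 6.20e-16). Probe set 1428358_at gave 9.6, 9.7 and 8.6 in epithelial pools A, B and C, against 6.1, 6.3 and 7.0 in mesenchymal pools A, B and C, a difference of 2.83 ± 0.27. No array of one tissue overlapped with the other in any of the 3, and the mean of the 3 probe sets differed by 3.03.

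The small secreted peptides followed with nearly equal differences. Tff3, the trefoil peptide of intestinal goblet cells (1417370_at), was at 14.2, 14.2 and 13.6 in epithelial pools A, B and C, against 9.9, 10.2 and 10.5 in mesenchymal pools A, B and C, a difference of 3.80 ± 0.24, or 13.9-fold (adjusted p = 5.66e-16). Spink4, a Kazal-type protease inhibitor (1427119_at), was at 12.5, 12.7 and 12.1 in epithelial pools A, B and C, against 8.4, 8.3 and 8.9 in mesenchymal pools A, B and C, a difference of 3.90 ± 0.24, or 14.9-fold (adjusted p = 2.36e-16). In both genes the lowest epithelial array was C and the highest mesenchymal array was C.

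Muc13, the membrane-bound mucin, was higher in the epithelium by both of its probe sets. The brighter (1419387_s_at) was at 13.9, 14.2 and 13.9 in epithelial pools A, B and C, against 9.9, 10.0 and 10.4 in mesenchymal pools A, B and C, a difference of 3.90 ± 0.23 (adjusted p = 9.27e-17). The other (1419386_at) was at 12.5, 13.1 and 12.7 in epithelial pools A, B and C, against 6.8, 6.5 and 7.7 in mesenchymal pools A, B and C, a difference of 5.77 ± 0.26 (adjusted p = 4.42e-20). Both probe sets kept all epithelial arrays above all mesenchymal arrays.

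Of the folding genes, Agr2 differed strongly and Ern2 modestly. Agr2 (1419268_at) was at 11.9, 12.0 and 10.9 in epithelial pools A, B and C, against 7.6, 7.0 and 8.6 in mesenchymal pools A, B and C, a difference of 3.87 ± 0.30, or 14.6-fold (adjusted p = 1.27e-13), and its mesenchymal arrays had the widest spread of the 10 genes (SD of 0.81). Its second probe set (1455802_x_at) was at 10.2, 10.6 and 9.3 in epithelial pools A, B and C, against 5.1, 5.5 and 6.0 in mesenchymal pools A, B and C, a difference of 4.50 ± 0.27. These mesenchymal values were below the bacterial control means of the same arrays (5.87, 6.25 and 6.15), so the size of this difference is limited by background signal. Ern2 (1450139_at) was at 8.1, 8.7 and 8.0 in epithelial pools A, B and C, against 6.6, 6.8 and 6.7 in mesenchymal pools A, B and C, a difference of 1.57 ± 0.24, or 2.96-fold (adjusted p = 8.82e-07). For Ern1, the widely expressed relative of Ern2, the brightest probe set averaged 9.73 ± 0.42 in the epithelium, against 9.73 ± 0.21 in the mesenchyme (SD, n = 3 each), and 0 of its 5 probe sets were called.

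Spdef, the regulator, was the member without a call. Its only probe set (1450220_a_at) was at 8.9, 9.4 and 8.8 in epithelial pools A, B and C, against 8.5, 8.4 and 9.1 in mesenchymal pools A, B and C, and the arrays of both tissues overlapped. The difference was 0.37 ± 0.24 with a 95% interval of -0.13 to 0.86 (adjusted p = 0.257). The value moved with the scaling of the arrays, between 0.11 on spike-in controls (adjusted p = 0.847) and 0.61 to 0.68 on ribosomal protein genes, loess, equal medians and quantiles (adjusted p = 0.013 to 0.0221), and these point values were under 2-fold. The mesenchymal values lay near the medians of those arrays (8.5 to 8.7). Without detection calls, a single probe set at this level cannot show that Spdef is expressed equally in both tissues.

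**Figure D1:**
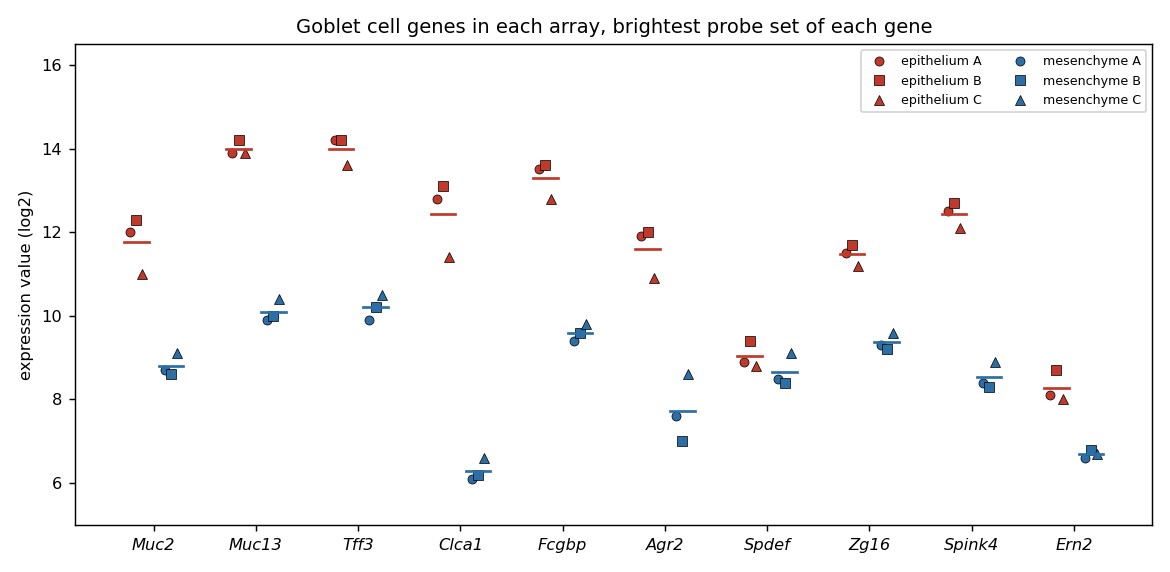
Log2 expression value of the brightest probe set of each of the 10 genes in every array, epithelium in red and mesenchyme in blue, with circles, squares and triangles for pools A, B and C and bars for the mean of 3 arrays. The tissues are apart for 9 genes and overlap for Spdef, and the triangle of epithelium C lies lowest among epithelial arrays for 9 genes.

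**Figure D2:**
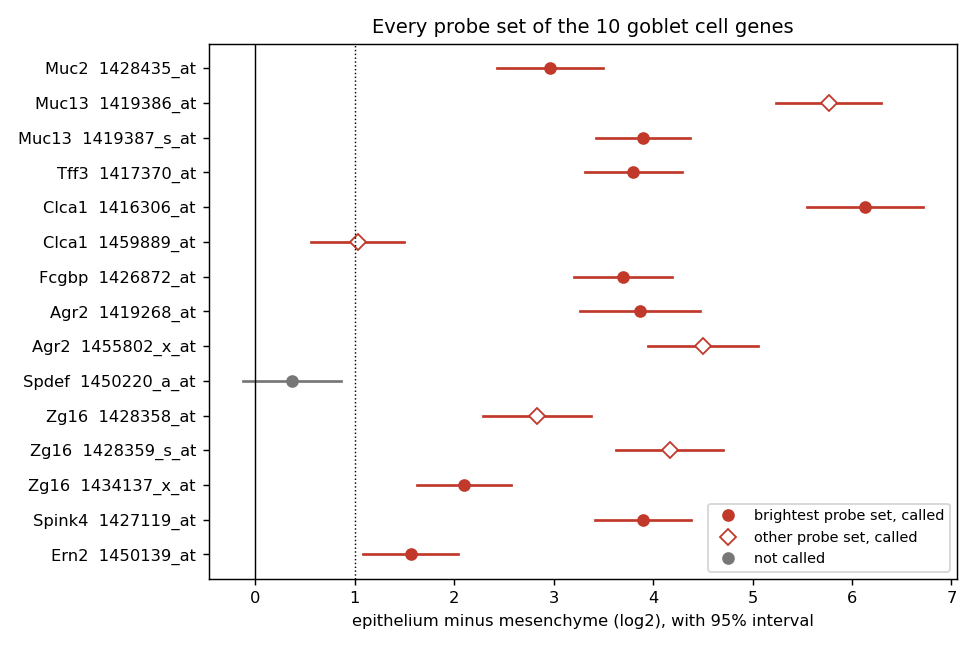
Epithelium minus mesenchyme on the log2 scale for all 15 probe sets, with 95% intervals from limma (3 arrays per tissue), filled circles for the brightest probe set of a gene, open diamonds for the others, and a dotted line at the 2-fold threshold. The intervals of 14 probe sets lie above 0, and probe sets of Clca1, Zg16 and Muc13 differ in size.

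The epithelial pools were unequal in these genes. Epithelium C had the lowest epithelial value for 9 of 10 genes and for 13 of 15 probe sets, where it was lowest for 19.6% of all genes and for 16.6% of the 1490 genes called higher in the epithelium. Array medians were 8.1, 8.6 and 8.3 in epithelium A, B and C, so pool A tends to read lowest by scale. Such counts and shares are given for the deposited values only. C lay below the mean of A and B by at least 1 (2-fold) in 3 genes, against 0.412% of all genes and 1.28% of the genes called higher in the epithelium. These were Clca1 (-1.55, so that C held 34.2% of the level of A and B on the linear scale), Muc2 (-1.15, 45.1%) and Agr2 (-1.05, 48.3%). The median over the 10 genes was -0.55, against -0.05 over all genes and -0.10 over genes called higher in the epithelium. With 3 arrays of one tissue there are no groups to test, and these values are a description. Without epithelium C, 9 genes and 14 probe sets were still called higher in the epithelium, and the same counts were found without mesenchyme B.

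The remaining genes followed in a graded way. Fcgbp stood at -0.75 in C relative to A and B, Tff3 at -0.60, Spink4 at -0.50, Zg16 and Ern2 at -0.40, Spdef at -0.35 and Muc13 at -0.15. For Zg16 the other probe sets gave -1.20 (1428359_s_at) and -1.05 (1428358_at), and the second probe set of Agr2 gave -1.10. The dim second probe set of Clca1 (1459889_at) gave only -0.20, and the other probe set of Muc13 (1419386_at) gave -0.10. Among genes of like epithelial level (within 1 log2 unit), a lower value of C minus the mean of A and B was found for 0 of 1377 genes beside Clca1, 0.132% of 2279 genes beside Muc2, 0.152% of 2633 beside Agr2, 0.486% of 617 beside Fcgbp and 0.651% of 307 beside Tff3. For Muc13, the membrane mucin, this share was 26.4% of 307 genes, and it was 2.76% for Spink4, 8.64% for Zg16, 13% for Spdef and 14.6% for Ern2. By the second probe set of Clca1 the share was 31.4%, and by the other probe set of Muc13 it was 51.3%. Among like-level genes called higher in the epithelium the shares were 0 of 538 for Clca1, 0.45% of 667 for Muc2, 0.567% of 705 for Agr2, 0.687% of 291 for Fcgbp and 0.658% of 152 for Tff3. For the other members they were 2.6% for Spink4, 8.65% for Zg16, 20.6% for Spdef, 24.7% for Ern2 and 25% for Muc13.

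General epithelial genes did not show the same departure. The pan-epithelial list averaged 11.99, 12.49 and 12.17 in epithelium A, B and C, with C lowest in 0 of 16 genes and a median departure of -0.08. The array median was lower in A (8.1) than in C (8.3), which makes C less often the lowest in a count on deposited values. The count of 0 therefore depends in part on scale. The 15 absorptive enterocyte genes averaged 13.33, 13.73 and 13.58, with C lowest in 1 and a median of 0.10. The 10 goblet cell genes averaged 11.93, 12.19 and 11.37. After subtraction of the pan-epithelial list the departures were -1.48 for Clca1, -1.08 for Muc2, -0.98 for Agr2 and -0.68 for Fcgbp. The mesenchymal list read 7.79, 8.24 and 8.02, with a median departure of 0.00.

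Other genes moved with the goblet cell products in pool C. Among the genes called higher in the epithelium, Clca1 had rank 5 from the bottom for this departure, Muc2 rank 13 and Agr2 rank 16, and ranks 1 to 4 were Ces1c (-1.80), Fabp6 (-1.65), Mptx1 (-1.60) and Fgf15 (-1.55). Fabp6, a bile acid-binding protein, and Fgf15, a bile acid-induced growth factor, are known as genes of the ileum. A short list of ileal genes, written after these values were seen and including those that led to it, gave a median of -0.50 over 7 genes, with -1.25 for the hormone gene Gcg and -0.50 for Pyy, but -0.05 for Slc51a, -0.20 for Slc51b and 0.15 for Slc10a2, the last of them dim in both tissues (4.9 to 5.5). A list of 8 duodenal and jejunal genes, also written after the data were seen, had a median of 0.13. Epithelium C was lowest in 0 of these 8 and highest in 2, with Onecut2 at 0.80. Of the 7 ileal genes C was lowest in 5 and highest in 1. The 15 enteroendocrine genes had a median of -0.25. Whether the regional make-up of the pools had a part in the goblet cell values was not tested.

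**Figure D3:**
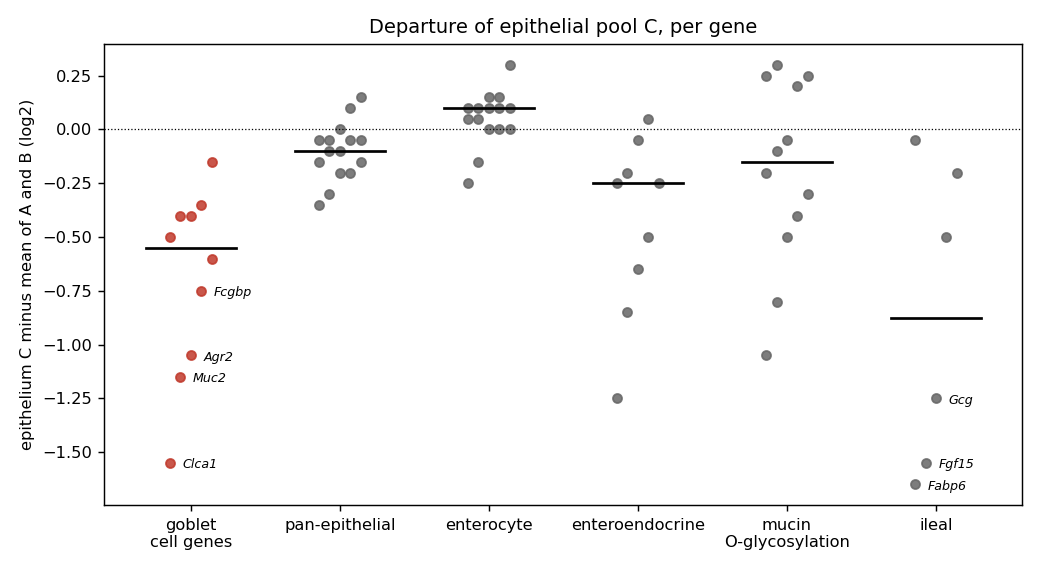
Epithelium C minus the mean of epithelium A and B on the log2 scale, with 1 point per gene (brightest probe set) and a bar for the median, for the 10 goblet cell genes (red) and for genes called higher in the epithelium in 5 other lists (grey). Clca1, Muc2 and Agr2 lie at -1.55, -1.15 and -1.05, while pan-epithelial and enterocyte genes lie near 0, and the ileal genes Fabp6, Fgf15 and Gcg lie as low as the goblet cell genes.

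In the mesenchyme, pool C read highest for most goblet cell and general epithelial genes. Mesenchyme C had the highest mesenchymal value for 9 of 10 goblet cell genes, by a median of 0.45 over the mean of A and B. It did so for 12 of 16 pan-epithelial genes (median 0.38) and 14 of 15 enterocyte genes (median 0.70). It was highest for only 2 of 18 mesenchymal genes and 2 of 28 protein folding genes (median -0.05 each). A share over all genes is not given here. As a percent of the epithelial mean on the linear scale, the 9 called goblet cell genes had a median of 6.25%, 7.18% and 8.84% in mesenchyme A, B and C. The called pan-epithelial genes stood at 8.84%, 8.25% and 11.4% and the enterocyte genes at 4.12%, 4.42% and 6.70%. Among single genes Clca1 was lowest (1.24%, 1.33% and 1.75%), and Agr2 read 6.25%, 4.12% and 12.5%. Muc2 stood at 11.9%, 11.1% and 15.7%, and Ern2, whose epithelial signal was dim, at 31.5%, 36.2% and 33.8%. Without detection calls, carried-over epithelium and nonspecific signal cannot be told apart in these values.

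Genes around the 10 members in goblet cell biology were read against 8.19% of all genes called higher in the epithelium and 15.9% called higher in the mesenchyme. Of 25 other goblet cell genes 9 passed in favour of the epithelium, 1 in favour of the mesenchyme and 15 were not called, with a median difference of 0.40. The highest were Dmbt1, a secreted scavenger receptor protein (4.53), Scin, an actin-severing protein (3.77), and Guca2a, the hormone guanylin (3.67), while Nxpe4 was higher in the mesenchyme (-4.00). Among the uncalled genes, named after their values were seen, were Retnlb and Klk1 (-0.30 each) and Best2 (-0.47). Epithelium C lay below A and B for Guca2a (-1.0) and for Bcas1 (-0.95) and Ccl6 (-1.30), which were named after their values were seen, and it was lowest for 13 of the 25 genes with a median departure of -0.30.

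The other mucins, trefoil peptides and gastric mucous products gave another picture. Of 13 measured genes 1 was higher in the epithelium, Muc3, a membrane mucin (1.70 ± 0.24), and 1 higher in the mesenchyme, Muc16 (-1.47 ± 0.23), a membrane mucin known from mesothelium, and the median was -0.30. The count for the epithelium was 2 with equal medians, quantiles, loess, ribosomal protein centring, the mean of probe sets and without mesenchyme C. Muc4, a membrane mucin named after its values were seen, had no overlap between tissues in its 3 probe sets, with the epithelium higher by 0.90 (the brightest), 0.97 and 1.27, of which 1.27 was called. On its chromosome Muc2 is followed by the gel-forming mucins Muc5ac and Muc5b, which are expressed in stomach and airway. Muc5ac averaged 9.17 ± 0.25 in the epithelium, against 9.43 ± 0.15 in the mesenchyme, and Muc5b 9.37 ± 0.12 in the epithelium, against 9.40 ± 0.10 in the mesenchyme (SD, n = 3 each). Tff3 is followed by Tff2 and Tff1, the trefoil peptides of the stomach, whose differences were -0.50 ± 0.26 and -0.47 ± 0.22 without a call. Tff2 averaged 8.53 in the epithelium, against 9.03 in the mesenchyme, and Tff1 was bright in both tissues, with 11.63 against 12.10. Without detection calls, expression and nonspecific signal cannot be told apart for these trefoil probe sets. Muc2 and Tff3 were thus called and these cluster neighbours were not, though the difference between neighbours was not tested.

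Of 8 measured Clca genes 3 were higher in the epithelium (Clca1, Clca3b and Clca4b), 1 was higher in the mesenchyme (Clca3a1) and 4 were not called. Beside Clca1, chosen for description after their values were seen, Clca4b (1439796_at) was at 13.8, 14.1 and 13.7 in epithelial pools A, B and C, against 8.1, 8.2 and 8.7 in mesenchymal pools A, B and C, a difference of 5.53 ± 0.23 (adjusted p = 8.69e-21). Clca3b (1451823_at) was at 9.3, 10.1 and 9.6 in epithelial pools A, B and C, against 6.5, 6.5 and 6.9 in mesenchymal pools A, B and C, a difference of 3.03 ± 0.24. Clca3a1 (1417852_x_at) was at 7.7, 8.5 and 7.8 in epithelial pools A, B and C, against 10.7, 10.5 and 10.4 in mesenchymal pools A, B and C, a difference of -2.53 ± 0.24 (adjusted p = 3.28e-11), and its second probe set differed by -1.13 ± 0.25. Clca4a and Clca2, which flank Clca1, were not called (-0.23 and -0.27), nor were Clca3a2 (0.13, and -0.10 by its second probe set) and Clca4c-ps (0.20). Paralogs of this family are similar in sequence, and their probe sets may share signal. Epithelium C lay 0.1 below the next epithelial pool for Clca4b and between A and B for Clca3b. For Clca1 it lay 1.4 below by the brightest probe set and 0.1 below by the dim second one. Over the 3 protein-coding neighbours on each side of all members, 4 of 56 measured genes were called for the epithelium and 6 for the mesenchyme. Over all genes the shares called were 8.19% and 15.9%, and the 4 neighbours include Clca3b and Clca4b.

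Regulators of the goblet lineage were mixed. Of 20 genes, Spdef included, 10 were higher in the epithelium and 1 in the mesenchyme, with a median of 1.18. The largest differences were those of the general gut factors Gata6 (3.63), Hnf4g (3.27), Cdx1 (3.23) and Hnf4a (3.00), and Kdm5b, a histone demethylase, was the one higher in the mesenchyme (-1.57). Cdx2 (2.87), Gata4 (2.80) and Elf3 (2.53) were also called, and were named after their values were seen. Cdx1, Cdx2 and Elf3 also stand in the pan-epithelial list, so the count is not one of goblet cell factors alone. Atoh1, which commits cells to the secretory lineages, differed by 1.60 (9.13 ± 0.50 in the epithelium, against 7.53 ± 0.15 in the mesenchyme, SD, n = 3 each), Foxa1 by 2.53 and Foxa3 by 1.67, while Gfi1 (0.23), Klf4 (0.40), Foxa2 (0.07) and Creb3l1 (-0.93, adjusted p = 0.00113 but under 2-fold) were not called. These 7 genes were named after their values were seen.

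Genes of mucin glycosylation and of protein folding were mixed. Of 28 genes of mucin O-glycosylation 12 were higher in the epithelium and 1 in the mesenchyme, with a median of 0.88. They included the sialyltransferases St3gal1 (4.20) and St3gal4 (3.73), Gcnt3, which builds branched mucin glycans (3.17), and the sulfate transporter Slc26a2 (2.20), and Galnt2, an enzyme that starts O-glycans, was higher in the mesenchyme (-2.0). Gcnt3 was also low in epithelium C (-1.05). Of 30 genes of endoplasmic reticulum folding and the unfolded protein response, Agr2 and Ern2 included, 5 were higher in the epithelium and 0 in the mesenchyme, with a median of 0.30. Beside those 2 they were Sdf2l1 (1.73), Dnajb9 (1.43) and the disulfide isomerase P4hb (1.07), which was named after its value was seen. Xbp1 (-0.20) and the chaperone Hspa5 (0.27) were not called.

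**Figure D4:**
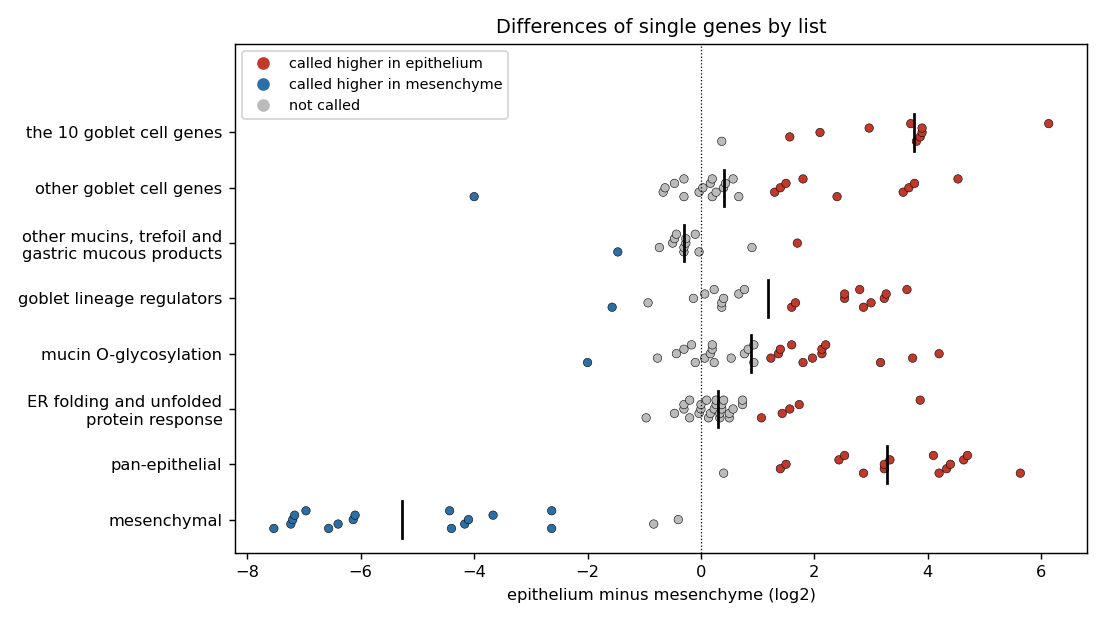
Epithelium minus mesenchyme on the log2 scale for the genes of 8 lists (brightest probe set of each gene, 3 arrays per tissue), in red where called higher in the epithelium, blue where called higher in the mesenchyme and grey where not called, with a bar for the median. The 10 goblet cell genes have a median of 3.75, the other mucins and gastric mucous products one of -0.30 and the folding genes one of 0.30.

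Markers of other secretory cells and of the pancreas were read for comparison. The enteroendocrine list had 9 of 15 genes higher in the epithelium, with Cck (4.20), Gcg (3.43), Nts (2.90) and Gip (2.83) at the top, and Tac1 was higher in the mesenchyme (-2.07). Of 7 Paneth cell genes Mptx1 was higher in the epithelium (3.80) and Lyz1 in the mesenchyme (-2.60), by a probe set that may also read Lyz2 of macrophages. Genes of pancreatic acinar cells were called for the epithelium in 4 of 15 cases, Reg1 (3.10), Clps (1.90), Cela1 (1.87) and Rnase1 (1.63), and 11 were not called, with a median of 0.00. The pancreatic list, which concerns Zg16 because acinar cells also make it, averaged 8.82, 9.13 and 8.89 in epithelium A, B and C, against 8.96, 8.20 and 8.63 in mesenchyme A, B and C.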

How the data were processed

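RNA of 3 epithelial and 3 mesenchymal pools was hybridized to Affymetrix whole-genome mouse arrays, whose probe sets mostly lie near the 3′ end of transcripts. Each deposited number is a log2 signal for 1 probe set, and the submitters' processing notes name RMA as the authors' method. Its version, settings and any step between arrays are not given in the sources used here. All numbers are rounded to 0.1 and carry no detection calls, and array medians differ. Of 45101 probe sets, 64 controls were set aside. The platform annotation gave 1 symbol for 34945 probe sets, updated through RefSeq gene IDs (GRCm38.p6) to 18193 genes. A probe set with more than 1 symbol stood for no gene.

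Tissues were compared with limma 3.58.1 (R 4.3.3; lmFit, eBayes, 4 residual and 31.71 prior degrees of freedom) on all 45037 probe sets, and the procedure was tested on simulated data. Alternatives were 5 scalings, a filter on probe sets under 7 in both tissues, a trended robust fit, the pool letters as a block, each array left out, and the mean over all probe sets of a gene. The genes, the 11 other lists and the motifs were chosen with earlier results of these data known. All members were named, and from each list the 4 called genes with the largest difference and up to 2 of the minority direction; other genes were named after their values were seen. The labels do not say that equal letters share embryos. Deviations of arrays with the same letter correlated at -0.31 (A), -0.15 (B) and 0.12 (C), so the letters were not treated as pairs. Labels do not say whether pools shared litters. The p-values rest on the spread between these pools, drawn by limma towards the spread of all probe sets. They do not measure the disagreement of the pools in a single gene.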

Additional observations from a re-analysis of the deposited data

How the results depend on the processing

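The count of 9 goblet cell genes higher in the epithelium was obtained under every alternative tried, and with 1 array left out it stayed at 9. The count of probe sets was 13 or 14, also between 13 and 14 with 1 array left out, and the second probe set of Clca1 was the one that lost its call, while the filter on dim probe sets removed it. Of 219 recomputed differences of members 3 lost a call, all of that probe set, and 0 changed sign. With the pool letters as a replicate block, 9 genes and 14 probe sets were called, and no member's call changed. Averaged over both probe sets, Clca1 differed by 3.58, more than 1.5 times below that of its brightest probe set. With equal array medians the members' median signal in the mesenchyme was 4.85% of the epithelial level in mesenchyme A and 6.86% in mesenchyme C. The median departure of epithelium C over the members was -0.50 with equal medians and -0.45 after quantile normalization. Of 330 recomputed list counts 27 moved by more than 1.5 times, and each of these was a count of 0 or 1 in the deposited values. The share of calls that were higher in the epithelium was 34% in the deposited values, 44.6% after loess, 47.1% after quantile normalization, 50.6% with equal medians, 47.6% when arrays were centred on ribosomal protein genes and 22.5% when centred on spike-in controls. Over all genes the median difference was 0.13 with equal medians and -0.43 with spike-in centring, against -0.17 as deposited. Without detection calls, dim signal such as that of Ern2 and of the second Clca1 probe set limits what a fold can show.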
